A study of Homo sapiens with 12 samples.

Results

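The SLC25 genes encode the mitochondrial carriers, and 50 of the 19777 genes named by the arrays had a symbol that begins SLC25A followed by a digit. They were found through 102 probe sets that the platform annotation gives to exactly 1 gene. Of the 50, 45 are protein-coding and 5 are antisense transcripts or pseudogenes. Each gene was represented by the probe set whose mean over 12 arrays was highest, and 37 had a value over log2 4 on at least 3 arrays and were tested (36 protein-coding genes and the antisense transcript SLC25A25-AS1). The other 13 lay at means between log2 1.92 and log2 3.27, with 4.11 as their highest single value. They were SLC25A2, SLC25A18, SLC25A21, SLC25A27, SLC25A31, SLC25A41, SLC25A47, SLC25A48, SLC25A53, SLC25A3P1, SLC25A5-AS1, SLC25A21-AS1 and SLC25A48-AS1. SLC25A6, the third widely expressed adenine nucleotide translocase gene, was not analysed here.

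RNA came from HK-2 cells, an immortalised epithelial line from the human renal proximal tubule, which is 1 line grown in culture and not tissue. The groups were HK-2 cells given the high dose of Aa for 24 h, vehicle control cells of 24 h, HK-2 cells given the high dose of Aa for 48 h, and vehicle control cells of 48 h, with 3 biological replicates each. All groups grew in a medium with EGF, hydrocortisone, insulin, transferrin and selenite, and were treated near confluency. Neither the identity of Aa nor its dose is stated in the sources used here.

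Mitochondrial carriers sit in the inner membrane of the mitochondrion, apart from a few that reside in the outer membrane or in peroxisomes. Each exchanges or co-transports small molecules, such as ADP for ATP, phosphate, dicarboxylates, amino acids, nucleotides or cofactors, across a membrane that is otherwise tight to them. Proximal tubule cells rely on oxidative metabolism, so these exchanges link their cytosol to the respiratory chain.

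Levels are on the log2 scale of GCRMA, which the authors applied, and levels under log2 4 are near background here. Over all probe sets, the correlation was 0.949 to 0.976 between Aa and control arrays and 0.994 to 0.997 within groups. All 5 epithelial markers passed the filter, and their summed log2 level at 24 h was 54.0 to 55.5 on Aa arrays and 57.9 to 59.4 on control arrays. At 48 h this sum was 54.0 to 56.3 with Aa and 57.0 to 58.8 with vehicle. The markers did not move together: at 48 h KRT8 and KRT18 had log2 changes of 0.71 and 0.04. CDH1, KRT19 and EPCAM had -1.27, -1.37 and -0.44. Of 14 proximal tubule markers with a probe set only PAX8, SLC3A1 and GATM passed, while LRP2, CUBN, AQP1 and SLC34A1 did not. The sum over the 14 was 52.4 to 52.9 with Aa and 55.5 to 55.9 with vehicle at 24 h, and 51.6 to 53.1 with Aa and 56.9 to 57.7 with vehicle at 48 h. SLC3A1 had log2 changes of -1.96 and -3.50 at 24 h and 48 h, PAX8 -0.35 and -1.07, and GATM -0.42 and -0.68. The other 11 were under the filter. None of 5 leukocyte markers passed, 1 of 5 endothelial, 3 of 6 fibroblast and 1 of 6 distal nephron and podocyte markers did. The 3 fibroblast markers, DCN, LUM and COL1A1, averaged log2 11.9, 9.68 and 7.96 over the 12 arrays. RNA quality was read as the 3′ minus 5′ log2 difference of ACTB and GAPDH, whose mean was 0.394 with Aa and 0.306 with vehicle at 24 h, and 0.542 with Aa and 0.319 with vehicle at 48 h. The part of these differences in the results below was not tested.

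The comparison of Aa with vehicle at 24 h asked which carrier transcripts differed after the shorter exposure. SLC25A34 and SLC25A25 were higher in Aa-treated cells and SLC25A35, SLC25A11 and SLC25A26 were lower. In all, 17 of the 37 tested SLC25 genes passed the test (limma, Benjamini-Hochberg adjusted p under 0.05 over 11184 genes), 10 of them higher and 7 lower. Among all genes tested 49.1% passed, 26.3% higher and 22.8% lower, so the share of SLC25 genes that passed, 45.9%, was near that of all genes. Of those, 6 were higher and 4 lower by 1 log2 unit or more, against 20.7% of all genes (10.9% higher and 9.76% lower). The median log2 change was -0.06 over the SLC25 genes and 0.02 over all genes tested. Only 32 of the 37 were over log2 4 on all 12 arrays. SLC25A34 and SLC25A25-AS1 passed the filter through Aa arrays alone and SLC25A35 through control arrays alone, so these 3 had to differ. Because the RNA came from whole cultures, fewer cells of a kind and less RNA per cell cannot be told apart.

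At 48 h 20 of the 37 passed, 9 higher and 11 lower, against 64.5% of all genes (30.6% higher and 33.9% lower). By 1 log2 unit or more 5 were higher and 6 lower, against 31.9% of all genes (14.6% higher and 17.3% lower). The median log2 change was -0.12 over the SLC25 genes and -0.03 over all genes tested. The 20 are 54.1% of the SLC25 genes tested. Scaling each array to its hybridisation control probe sets shifted the median of all genes by -0.28 at 24 h and -0.44 at 48 h. Under it the split of the SLC25 genes was 7 higher and 11 lower at 24 h, and 6 higher and 22 lower at 48 h. Of all genes that passed under it, 30.2% were higher at 24 h and 23.5% at 48 h, against 53.6% and 47.5% without it. Changes are therefore given relative to the other transcripts on the arrays. A total of 14 genes passed at both times, 8 higher at both, 5 lower at both and SLC25A16 in opposite directions. SLC25A32, SLC25A36 and SLC25A46 passed at 24 h alone, and SLC25A4, SLC25A5, SLC25A17, SLC25A30, SLC25A37 and SLC25A51 at 48 h alone, and 14 passed at neither time. Those that did not pass had log2 changes between -0.50 and 0.29 at 24 h and between -0.74 and 0.14 at 48 h.

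**Figure D1:**
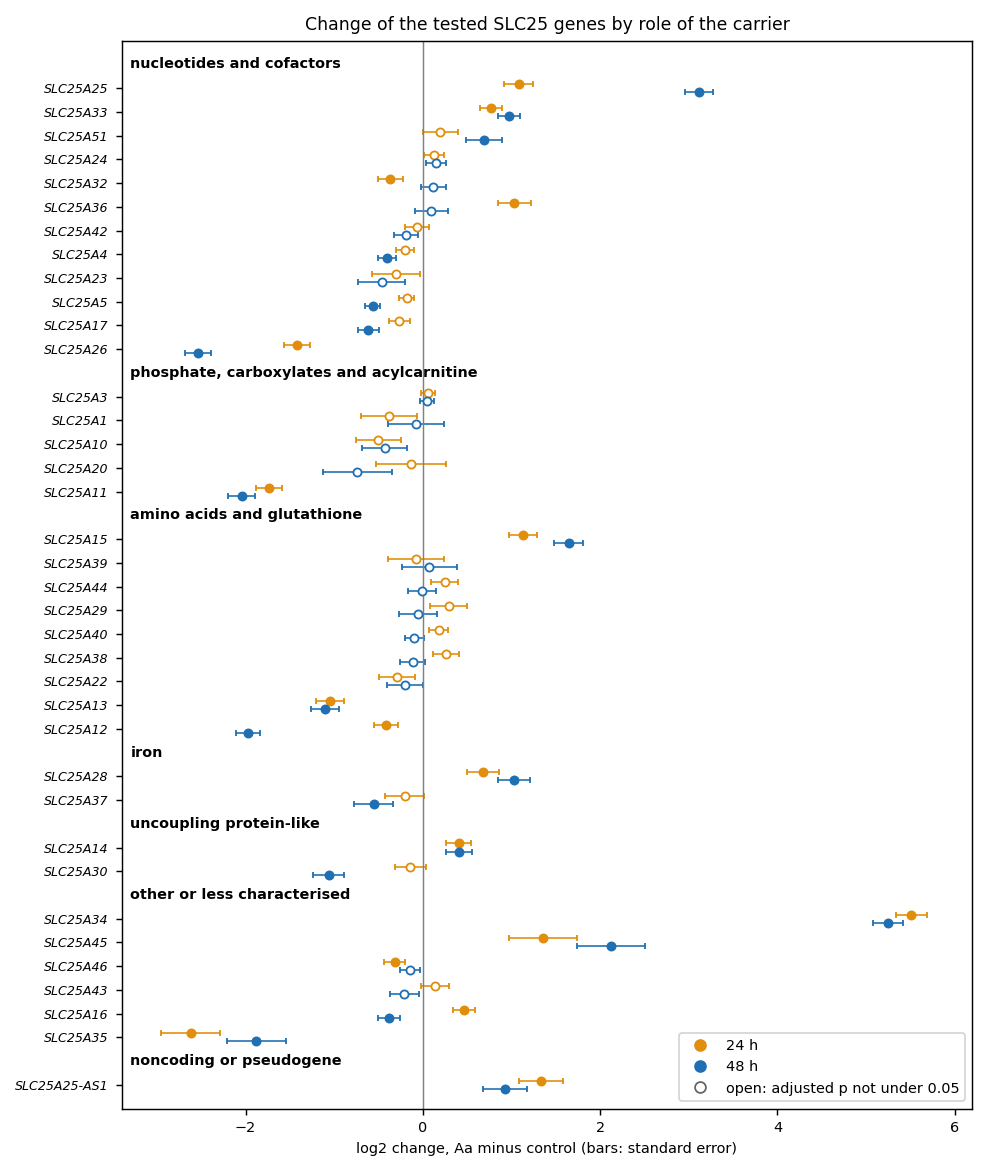
Log2 change of each tested SLC25 gene, Aa minus control, at 24 h (orange) and 48 h (blue), grouped by the role of the carrier; bars are the standard error from limma and filled points passed at an adjusted p under 0.05. SLC25A34 stands at 5.51 and 5.25, and SLC25A35 and SLC25A26 at -2.62 and -2.54 are the lowest values at 24 h and 48 h.

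Carriers of nucleotides and cofactors made up 12 of the tested genes. At 24 h 41.7% of them passed and at 48 h 58.3%, against 49.1% and 64.5% of all genes. Of the 12, 3 rose and 2 fell at 24 h and 3 rose and 4 fell at 48 h. The largest rise was that of SLC25A25, which encodes a calcium-regulated carrier that exchanges ATP-Mg for phosphate. At 24 h SLC25A25 had log2 values of 7.56, 7.08 and 7.12 in Aa-treated cells, against 6.02, 6.16 and 6.35 in control cells (log2 change 1.08, SE 0.16, limma adjusted p = 0.000238). Its 48 h values were 9.05, 9.07 and 9.32 in Aa-treated cells, against 5.81, 6.22 and 6.08 in control cells (log2 change 3.11, SE 0.16, limma adjusted p = 7.48e-08). Every Aa array lay above every control array at both times, and the gene was 8.65-fold higher at 48 h. The change was larger at 48 h than at 24 h by 2.03 (SE 0.23, limma adjusted p = 0.000704 for the difference). SLC25A24 and SLC25A23, which encode carriers of the same kind, did not pass at either time, with log2 changes of 0.12 and 0.14 for SLC25A24 and -0.30 and -0.47 for SLC25A23 at 24 h and 48 h. With the replicate number as a block, SLC25A23 was lower at 48 h (limma adjusted p = 0.00819), while its other probe set had log2 changes of 0.41 and 0.70.

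SLC25A25-AS1, the transcript named as antisense to SLC25A25, had log2 values of 4.30, 4.26 and 3.61 in Aa-treated cells, against 2.72, 2.72 and 2.73 in control cells at 24 h. After 48 h it had 3.51, 4.24 and 3.16 in Aa-treated cells, against 2.71, 2.71 and 2.72 in control cells. Its fitted log2 changes were 1.33 (SE 0.25, limma adjusted p = 0.00108) and 0.92 (SE 0.25, limma adjusted p = 0.00709). The groups did not overlap, yet all control arrays and 3 of 6 Aa arrays lay under log2 4, and the rise at 24 h was at least 1.04-fold. With every value under log2 4 set to log2 4 neither time passed (limma adjusted p = 0.17 and 0.52). With hybridisation-control scaling SLC25A25-AS1 had a change of 0.48 at 48 h that did not pass (limma adjusted p = 0.0601).

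SLC25A33 and SLC25A36 encode carriers of pyrimidine nucleotides. SLC25A33 had 9.49, 9.78 and 9.39 in Aa-treated cells, against 8.81, 8.76 and 8.79 in control cells at 24 h (log2 change 0.77, SE 0.13, limma adjusted p = 0.000507). At 48 h SLC25A33 had 9.81, 10.03 and 9.96 in Aa-treated cells, against 8.90, 9.17 and 8.81 in control cells (log2 change 0.97, SE 0.13, limma adjusted p = 5.64e-05). Its groups were apart at both times. SLC25A36 had 10.88, 11.37 and 10.87 in Aa-treated cells, against 9.78, 10.34 and 9.91 in control cells at 24 h (log2 change 1.03, SE 0.19, limma adjusted p = 0.000884). At 48 h SLC25A36 had 10.33, 10.79 and 10.49 in Aa-treated cells, against 10.43, 10.57 and 10.34 in control cells (log2 change 0.09, limma adjusted p = 0.683). The groups of SLC25A36 were apart at 24 h and overlapped at 48 h, and the 48 h change was smaller by the test of the difference (log2 difference -0.94, SE 0.26, limma adjusted p = 0.0317). Of its 3 other probe sets over the filter, 2 were higher at 24 h by 0.86 and 0.79 and 1 had a change of -0.14. At 48 h these 3 had changes of 0.45, -0.23 and -0.59, in the same order.

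SLC25A25, SLC25A33 and SLC25A36 share a sequence in the 250 bases before an annotated start, shown here because all 3 genes rose at 24 h. The capitals mark TGACGTCA, the palindromic cyclic AMP response element, in the RefSeq promoter sequences of GRCh38.p14 on the plus strand. The letters begin at base -200 from the start for SLC25A25 (chr9:128098257-128098506, 1 of 3 annotated starts), at -49 for SLC25A33 (chr1:9539215-9539464) and at -117 for SLC25A36 (chr3:140941586-140941835).
SLC25A25: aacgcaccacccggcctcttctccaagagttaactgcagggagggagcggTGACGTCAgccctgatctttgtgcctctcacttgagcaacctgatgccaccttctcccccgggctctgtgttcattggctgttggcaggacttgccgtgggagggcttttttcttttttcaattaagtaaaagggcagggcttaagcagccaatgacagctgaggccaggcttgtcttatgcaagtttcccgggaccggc
SLC25A33: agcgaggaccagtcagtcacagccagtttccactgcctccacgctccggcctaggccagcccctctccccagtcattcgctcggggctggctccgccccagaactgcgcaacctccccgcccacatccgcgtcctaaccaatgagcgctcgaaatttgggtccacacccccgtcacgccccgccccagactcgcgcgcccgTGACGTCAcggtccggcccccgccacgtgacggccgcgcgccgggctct
SLC25A36: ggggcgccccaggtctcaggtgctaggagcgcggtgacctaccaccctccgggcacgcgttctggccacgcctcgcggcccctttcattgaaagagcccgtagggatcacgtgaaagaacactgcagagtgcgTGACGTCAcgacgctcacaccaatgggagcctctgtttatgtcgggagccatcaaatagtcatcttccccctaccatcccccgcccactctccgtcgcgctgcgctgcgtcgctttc
A total of 32 tested SLC25 genes had a promoter in the table, and these 3 were the ones with a match. SLC25A34, which rose most at 24 h, had no match. SLC25A14, SLC25A15, SLC25A16, SLC25A28 and SLC25A45, which also rose at 24 h, were not among the matches. TGACGTCA is found in 1.65% of all 35116 promoters of the same length, and in 2.03% of genes. The 5 motifs searched, on both strands, were chosen after the values were seen. TGATGNAA, found in amino acid response elements, occurred in SLC25A11 alone (3.14% of all promoters) and the AP-1 letters TGANTCA in SLC25A22 alone (6.57%). The NRF1 motif occurred in SLC25A3 and SLC25A11 (5.07%). The E-box CACGTG occurred in 7 SLC25 genes (6.34%), among them SLC25A33 and SLC25A36, which rose at 24 h, and SLC25A13 and SLC25A26, which fell. A match is a description of the letters and not of a bound site.

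SLC25A26 encodes the carrier that brings S-adenosylmethionine, the methyl donor, into mitochondria. At 24 h it had 6.90, 7.35 and 7.22 in Aa-treated cells, against 8.47, 8.68 and 8.57 in control cells (log2 change -1.42, SE 0.15, limma adjusted p = 2.09e-05). By 48 h it had 6.48, 6.53 and 6.14 in Aa-treated cells, against 8.91, 9.10 and 8.76 in control cells (log2 change -2.54, SE 0.15, limma adjusted p = 1.8e-07). Every Aa array lay below every control array, and the gene was 5.82-fold lower at 48 h. The fall was larger at 48 h than at 24 h (log2 difference -1.12, SE 0.21, limma adjusted p = 0.00687).

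The adenine nucleotide translocases exchange ADP and ATP and are among the most abundant mitochondrial proteins. SLC25A5, the translocase of proliferating cells, had 13.86, 13.77 and 13.91 in Aa-treated cells at 48 h, against 14.42, 14.44 and 14.38 in control cells. Its log2 change of -0.57 (SE 0.08, limma adjusted p = 0.000127) followed one of -0.18 at 24 h that did not pass (limma adjusted p = 0.0944), and the difference between the times passed (-0.39, SE 0.12, limma adjusted p = 0.0427). SLC25A4, the translocase of heart and muscle, fell by 0.40 at 48 h (SE 0.10, limma adjusted p = 0.005), after a change of -0.20 at 24 h (limma adjusted p = 0.129). A second SLC25A4 probe set, at a mean of log2 3.34, had changes of 1.08 and 1.70, and the mean of both probe sets gave 0.65 at 48 h (limma adjusted p = 0.112).

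SLC25A51, the mitochondrial NAD carrier, was higher at 48 h by 0.69 (SE 0.20, limma adjusted p = 0.0109) and had a change of 0.20 at 24 h that did not pass (limma adjusted p = 0.444). With hybridisation-control scaling its 48 h change was 0.25 and did not pass (limma adjusted p = 0.268). SLC25A17, a peroxisomal carrier of cofactors, was lower at 48 h (log2 change -0.62, SE 0.12, limma adjusted p = 0.000762), with -0.27 at 24 h (limma adjusted p = 0.0814). Its second probe set, at a mean of log2 4.82, had changes of -1.39 and -1.60. With the mean of both, SLC25A17 was lower at 24 h by 0.83 (limma adjusted p = 0.00228). It also passed at 24 h with quantile normalisation, with hybridisation-control scaling and without control replicate 1 of 24 h (limma adjusted p = 0.0241, 0.00617 and 0.0412). SLC25A32, a carrier of folate or flavin, fell by 0.37 at 24 h (SE 0.14, limma adjusted p = 0.0476) and had a change of 0.12 at 48 h. Leaving out either replicate 1 or 3 of the Aa arrays or replicate 3 of the control arrays of 24 h ended the call of SLC25A32 (limma adjusted p = 0.141, 0.101 and 0.183). Equal array medians, no expression filter and the 24 h arrays alone also ended it (limma adjusted p = 0.0683, 0.0711 and 0.0831). So did leaving out any one Aa array of 48 h or control replicate 2 of 48 h (limma adjusted p between 0.0557 and 0.0607). SLC25A42, which carries coenzyme A, did not pass, with changes of -0.06 and -0.19.

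Of the 5 tested carriers of phosphate, carboxylates and acylcarnitine, 1 fell and 0 rose at each time. That was 20% at each time, against 49.1% of all genes at 24 h and 64.5% at 48 h. SLC25A11 encodes the carrier that exchanges 2-oxoglutarate for malate, a step of the malate-aspartate shuttle. It had 8.42, 8.19 and 8.52 in Aa-treated cells, against 10.15, 10.00 and 10.19 in control cells at 24 h (log2 change -1.74, SE 0.15, limma adjusted p = 5.14e-06). At 48 h SLC25A11 had 8.26, 7.77 and 7.85 in Aa-treated cells, against 10.03, 9.81 and 10.17 in control cells (log2 change -2.04, SE 0.15, limma adjusted p = 8.66e-07). The groups were apart by more than 1 log2 unit at both times, the gene was 3.33-fold and 4.13-fold lower, and its second probe set had changes of -2.0 and -2.19.

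SLC25A3, the phosphate carrier that supplies ATP synthase, had 14.26, 14.19 and 14.20 in Aa-treated cells, against 14.20, 14.13 and 14.14 in control cells at 24 h. The 48 h values were 14.25, 14.21 and 14.34 in Aa-treated cells, against 14.23, 14.26 and 14.19 in control cells. Its log2 changes of 0.06 and 0.04 (SE 0.08 each) did not pass (limma adjusted p = 0.575 and 0.657). A second probe set annotated to SLC25A3 averaged 9.44 in Aa-treated cells and 6.13 in control cells at 24 h (SD 0.33 and 0.31), and 10.68 and 7.08 at 48 h (SD 0.05 and 0.85). Its log2 changes were 3.31 and 3.59, so the 2 probe sets of SLC25A3 disagreed, and which SLC25A3 transcripts the second one reads was not analysed here. With the mean of both, SLC25A3 was higher by 1.69 at 24 h and 1.82 at 48 h (limma adjusted p = 3.11e-05 and 9.06e-06).

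SLC25A1, the citrate carrier, had changes of -0.38 and -0.08 that did not pass (SE 0.32, limma adjusted p = 0.343 and 0.848). Replicate 2 was the lowest array of SLC25A1 in each of the 4 groups, and with the replicate number as a block SLC25A1 was lower at 24 h (limma adjusted p = 0.00327). SLC25A10, the dicarboxylate carrier, had -0.50 and -0.43 (limma adjusted p = 0.126 and 0.161) and was lower at 24 h with the block (limma adjusted p = 0.0477). SLC25A20, which carries acylcarnitines for fatty acid oxidation, lay near the background limit, at 2.79 to 4.63 in Aa-treated cells and 4.16 to 4.46 in control cells at 48 h. Its change of -0.74 at 48 h did not pass (limma adjusted p = 0.119), and became -1.29 without Aa replicate 3 (limma adjusted p = 0.00087).

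**Figure D2:**
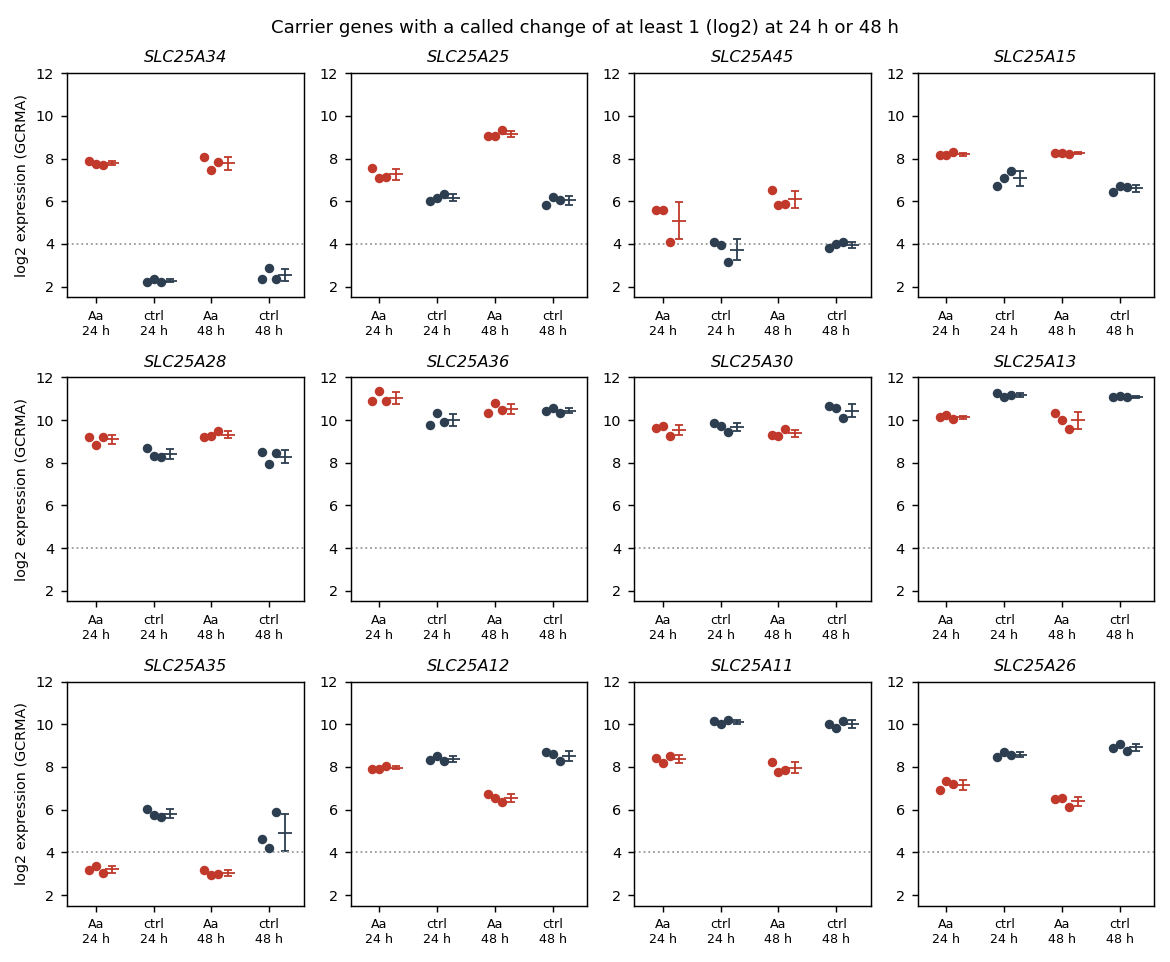
Log2 expression on each array of the 12 protein-coding SLC25 genes that passed and changed by 1 log2 unit or more at either time; red points are Aa arrays and dark points control arrays, each with the group mean and SD (n = 3), and the dotted line is log2 4. SLC25A34 lies at 7.46 to 8.06 on the Aa arrays and under the line on the control arrays, while SLC25A35 lies under the line on the Aa arrays.

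Amino acid and glutathione carriers made up 9 of the tested genes, and at each time 1 rose, 2 fell and 6 did not pass. The share that passed was 33.3% at each time, against 49.1% of all genes at 24 h and 64.5% at 48 h. SLC25A15, the ornithine carrier of the urea cycle, had 8.16, 8.16 and 8.30 in Aa-treated cells, against 6.70, 7.11 and 7.42 in control cells at 24 h (log2 change 1.13, SE 0.16, limma adjusted p = 0.000179). At 48 h SLC25A15 had 8.28, 8.27 and 8.20 in Aa-treated cells, against 6.42, 6.73 and 6.67 in control cells (log2 change 1.64, SE 0.16, limma adjusted p = 6.47e-06). The groups were apart at both times, and its second probe set was higher by 0.80 and 1.19.

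SLC25A12 and SLC25A13 encode the calcium-regulated aspartate-glutamate carriers, the other carriers of the malate-aspartate shuttle. SLC25A12 had 7.92, 7.90 and 8.03 in Aa-treated cells, against 8.31, 8.51 and 8.27 in control cells at 24 h (log2 change -0.41, SE 0.14, limma adjusted p = 0.0263). At 48 h SLC25A12 had 6.72, 6.52 and 6.38 in Aa-treated cells, against 8.70, 8.60 and 8.26 in control cells (log2 change -1.98, SE 0.14, limma adjusted p = 5.34e-07). Its groups were apart at both times and the fall was larger at 48 h (log2 difference -1.57, SE 0.19, limma adjusted p = 0.00103). The call of SLC25A12 at 24 h was lost without Aa replicate 1, without Aa replicate 2 or without control replicate 2 of 24 h (limma adjusted p = 0.0694, 0.0705 and 0.0973).

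SLC25A13 had 10.14, 10.22 and 10.06 in Aa-treated cells, against 11.28, 11.09 and 11.20 in control cells at 24 h (log2 change -1.05, SE 0.16, limma adjusted p = 0.000272). At 48 h SLC25A13 had 10.36, 10.00 and 9.59 in Aa-treated cells, against 11.06, 11.12 and 11.08 in control cells (log2 change -1.10, SE 0.16, limma adjusted p = 0.00011). The control arrays lay close together and the Aa arrays of 48 h were spread, but no Aa array reached a control array. The difference of the SLC25A13 changes between the times did not pass (-0.06, SE 0.22, limma adjusted p = 0.886). The 3 carriers of the shuttle thus fell at both times, a grouping made after the values were seen. Of the shuttle's enzymes, the cytosolic aminotransferase GOT1 fell by 0.76 and 0.37 at 24 h and 48 h (limma adjusted p = 5.8e-05 and 0.00445), and its mitochondrial counterpart GOT2 was higher at 48 h by 0.24 (limma adjusted p = 0.0315). The malate dehydrogenases MDH1 and MDH2 had changes between -0.10 and 0.23 that did not pass, although MDH2 was higher at 48 h with the replicate block (limma adjusted p = 0.012).

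The other 6 carriers of this group did not pass at either time. SLC25A22, a glutamate carrier, had changes of -0.29 and -0.21 at 24 h and 48 h, and SLC25A29, a carrier of basic amino acids, 0.29 and -0.06. SLC25A38, the glycine carrier that supplies haem synthesis, had 0.26 and -0.12, and SLC25A44, a carrier of branched-chain amino acids, 0.25 and -0.01. The glutathione carriers SLC25A39 and SLC25A40 had changes of -0.08 and 0.07, and of 0.18 and -0.10.

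The mitoferrins bring iron into mitochondria for haem and iron-sulfur clusters. SLC25A28, the mitoferrin of most tissues, had 9.21, 8.85 and 9.22 in Aa-treated cells, against 8.67, 8.33 and 8.26 in control cells at 24 h (log2 change 0.68, SE 0.18, limma adjusted p = 0.00962). At 48 h SLC25A28 had 9.19, 9.26 and 9.51 in Aa-treated cells, against 8.52, 7.92 and 8.44 in control cells (log2 change 1.02, SE 0.18, limma adjusted p = 0.000504). Its groups were apart at both times. With hybridisation-control scaling the 24 h change of SLC25A28 was 0.39 and did not pass (limma adjusted p = 0.149). SLC25A37, the mitoferrin of erythroid cells, was lower at 48 h (log2 change -0.56, SE 0.22, limma adjusted p = 0.0472), with -0.21 at 24 h (limma adjusted p = 0.472). The call of SLC25A37 was lost when any one of Aa replicate 3 or control replicates 1 and 2 of 48 h was left out (limma adjusted p = 0.19, 0.111 and 0.121). It was also lost without replicate 1 of the Aa or of the control arrays of 24 h (limma adjusted p = 0.0586 and 0.0591). Equal array medians, the mean of all probe sets, no expression filter and quantile normalisation ended it too (limma adjusted p = 0.0518, 0.0731, 0.101 and 0.0607).

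SLC25A14 and SLC25A30 encode carriers that resemble the uncoupling proteins. SLC25A30 had 9.64, 9.71 and 9.26 in Aa-treated cells, against 9.85, 9.74 and 9.45 in control cells at 24 h (log2 change -0.14, SE 0.18, limma adjusted p = 0.547). At 48 h SLC25A30 had 9.31, 9.27 and 9.57 in Aa-treated cells, against 10.66, 10.57 and 10.11 in control cells (log2 change -1.06, SE 0.18, limma adjusted p = 0.000336). The groups of SLC25A30 overlapped at 24 h and were apart at 48 h, and the changes differed between the times (-0.92, SE 0.25, limma adjusted p = 0.029). Control cells of 48 h differed from those of 24 h by 0.77 in SLC25A30 (limma adjusted p = 0.0747). Another SLC25A30 probe set over the filter, at a mean of log2 4.49, had changes of -1.36 at 24 h and -1.19 at 48 h. A further one had -0.20 and -0.62. With the mean of all probe sets SLC25A30 was lower at 24 h too (log2 change -0.43, limma adjusted p = 0.0105), so its timing differed between probe sets. SLC25A14 was higher by 0.41 at both times (SE 0.14, limma adjusted p = 0.0341 and 0.0261), and with hybridisation-control scaling its changes were 0.12 and -0.03 (limma adjusted p = 0.44 and 0.829). The call of SLC25A14 at 24 h was lost without Aa replicate 1 or 2 or control replicate 1 or 2 of 24 h, and that at 48 h without Aa replicate 2 or control replicate 1 or 2 of 48 h (limma adjusted p between 0.0509 and 0.121 in these 7 fits). The 24 h call was also lost with the mean of both probe sets, no expression filter and quantile normalisation (limma adjusted p = 0.0593, 0.0539 and 0.0645). The 48 h call was lost with the 48 h arrays alone (limma adjusted p = 0.0603).

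Less characterised carriers made up 6 of the tested genes, of which 3 rose and 2 fell at 24 h and 2 rose and 2 fell at 48 h. At 24 h 83.3% of them passed and at 48 h 66.7%, against 49.1% and 64.5% of all genes. SLC25A34 and SLC25A35, which had to differ, are among them. SLC25A34 encodes a carrier that resembles the oxaloacetate carrier of the yeast Saccharomyces cerevisiae. It had 7.91, 7.75 and 7.72 in Aa-treated cells, against 2.23, 2.37 and 2.24 in control cells at 24 h (log2 change 5.51, SE 0.17, limma adjusted p = 2.75e-09). After 48 h it had 8.06, 7.46 and 7.83 in Aa-treated cells, against 2.37, 2.87 and 2.37 in control cells (log2 change 5.25, SE 0.17, limma adjusted p = 2.7e-09). All 6 control arrays lay in the background, so SLC25A34 was at least 13.9-fold higher at 24 h and at least 13.8-fold higher at 48 h. Its second probe set averaged 6.34 in Aa-treated cells and 3.50 in control cells at 24 h (SD 0.47 and 0.32), and 6.32 and 3.44 at 48 h (SD 0.07 and 0.27).

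SLC25A35, which also resembles the yeast oxaloacetate carrier, went the other way. It had 3.19, 3.37 and 3.04 in Aa-treated cells, against 6.04, 5.75 and 5.66 in control cells at 24 h (log2 change -2.62, SE 0.33, limma adjusted p = 7.97e-05). At 48 h it had 3.19, 2.94 and 2.98 in Aa-treated cells, against 4.65, 4.21 and 5.89 in control cells (log2 change -1.88, SE 0.33, limma adjusted p = 0.000482). All Aa arrays of SLC25A35 lay under log2 4 and all control arrays above it, with 1 control array of 48 h above the other two. The gene was at least 3.52-fold lower at 24 h and at least 1.89-fold lower at 48 h.

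SLC25A45, another member of the family, had 5.58, 5.60 and 4.10 in Aa-treated cells, against 4.10, 3.93 and 3.18 in control cells at 24 h (log2 change 1.36, SE 0.38, limma adjusted p = 0.0127). At 48 h it had 6.54, 5.85 and 5.87 in Aa-treated cells, against 3.82, 4.0 and 4.07 in control cells (log2 change 2.12, SE 0.38, limma adjusted p = 0.000583). The lowest Aa array met the highest control array at 24 h, and the groups were apart at 48 h, where SLC25A45 was at least 4.17-fold higher. At 24 h it was at least 2.09-fold higher, a call lost without Aa replicate 1, without Aa replicate 2 or without control replicate 3 of 24 h (limma adjusted p = 0.0539, 0.0525 and 0.0546). A second SLC25A45 probe set, under log2 4 on every array, had changes of -0.66 and -0.50, and the mean of both gave 0.35 at 24 h (limma adjusted p = 0.286).

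SLC25A16 passed in opposite directions. It had 9.70, 9.70 and 9.72 in Aa-treated cells, against 9.38, 9.20 and 9.15 in control cells at 24 h (log2 change 0.46, SE 0.12, limma adjusted p = 0.00966). At 48 h it had 9.69, 9.74 and 9.51 in Aa-treated cells, against 10.27, 10.01 and 9.82 in control cells (log2 change -0.39, SE 0.12, limma adjusted p = 0.0181). The Aa arrays stayed near one level, and control cells of 48 h were higher than those of 24 h by 0.79 (limma adjusted p = 0.0326). The call at 48 h was lost without Aa replicate 3 or control replicate 1 of 48 h (limma adjusted p = 0.0684 and 0.0748). It was also lost with the 48 h arrays alone (limma adjusted p = 0.0613). The 2 other probe sets of SLC25A16 disagreed with each other, with 0.48 and 0.64 for one and -0.68 and -1.15 for the other. The 24 h call was lost with the mean of the probe sets and with hybridisation-control scaling (log2 change 0.056 and 0.18, limma adjusted p = 0.525 and 0.393). SLC25A46, a carrier relative of the outer membrane that takes part in mitochondrial fission, fell by 0.32 at 24 h (SE 0.12, limma adjusted p = 0.0423), and its second probe set had 0.47. That call was lost without Aa replicate 1 or control replicates 2 or 3 of 24 h (limma adjusted p = 0.169, 0.0886 and 0.135). Equal array medians, the mean of both probe sets and the 24 h arrays alone also ended it (limma adjusted p = 0.0674, 0.516 and 0.0847). So did leaving out any one Aa array of 48 h or control replicate 2 of 48 h (limma adjusted p between 0.0514 and 0.0552). SLC25A43 did not pass, with 0.14 and -0.21.

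Whether the carrier changes differed between the times was tested directly, as the 48 h change minus the 24 h change. This difference passed for 7 of the 37 SLC25 genes, 1 positive and 6 negative, against 19.5% of all genes tested (6.8% positive and 12.7% negative). The positive one was SLC25A25, and the negative ones were SLC25A5, SLC25A12, SLC25A16, SLC25A26, SLC25A30 and SLC25A36. With the replicate block SLC25A32 was added (log2 difference 0.48, limma adjusted p = 0.0351, against 0.103 without the block). The count was 4 without Aa replicate 2 of 24 h, Aa replicate 1 of 48 h, control replicate 3 of 24 h, or control replicate 1 or 2 of 48 h. SLC25A12, SLC25A16, SLC25A25 and SLC25A26 passed in all 12 fits that left out 1 array, with limma adjusted p no higher than 0.0288. The differences of SLC25A30 and SLC25A36 were lost in 7 of these 12 fits each (limma adjusted p up to 0.0714 and 0.0747), among them all 5 fits just named. That of SLC25A5 was lost in 11 of 12 (limma adjusted p up to 0.0999), and passed without control replicate 3 of 48 h (limma adjusted p = 0.0469).

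Vehicle control cells of 48 h were set against those of 24 h for the drift of the untreated culture. SLC25A16 alone passed among the 37 SLC25 genes, against 0.635% of all genes (0.277% higher and 0.358% lower). An unadjusted p under 0.05 was found for 7 of the 37 SLC25 genes and for 1914 of the 11184 genes tested. With the replicate block, for which the share of all genes is not given here, 7 SLC25 genes passed, 4 higher and 3 lower. The block added SLC25A1, SLC25A15, SLC25A30, SLC25A36, SLC25A39 and SLC25A40. The count lay between 0 and 3 when 1 array was left out. It was 0 without any one of the Aa arrays of 24 h, of the control arrays of 24 h, or of control replicates 1 and 2 of 48 h, and 3 without control replicate 3 of 48 h.

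**Figure D3:**
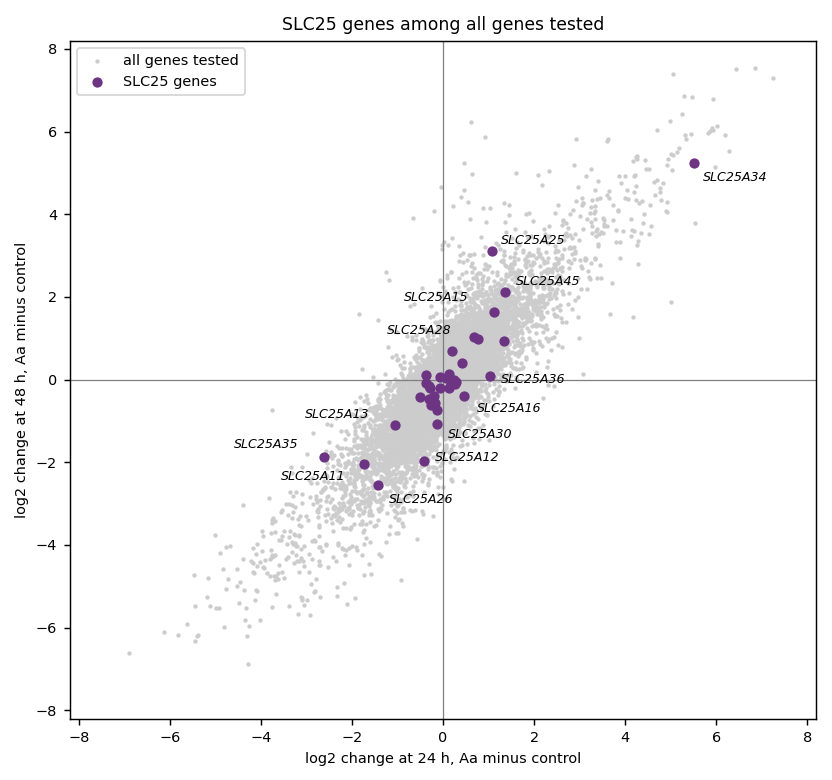
Log2 change at 48 h against log2 change at 24 h, Aa minus control, for the 37 tested SLC25 genes (purple) and all 11184 genes tested (grey). SLC25A34 lies far out at 5.51 and 5.25, SLC25A25 lies above the bulk at 1.08 and 3.11, and SLC25A12 lies below it at -0.41 and -1.98.

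Of the SLC25 genes, 22 had 1 probe set and 28 had several, up to 10 for SLC25A37. Among the tested genes, 31 further probe sets in 20 genes were over the filter. Of those belonging to genes that passed, 11 of 14 had the sign of the probe set used at 24 h and 19 of 22 at 48 h. SLC25A11, SLC25A12, SLC25A13, SLC25A15, SLC25A28, SLC25A30 and SLC25A34 kept 1 sign over all probe sets over the filter at both times, as did SLC25A14 and SLC25A17. The probe sets of SLC25A3 had 1 sign but differed by more than 3 log2 units. Signs were mixed in SLC25A4, SLC25A16, SLC25A23, SLC25A36 and SLC25A37 at both times, in SLC25A29, SLC25A40, SLC25A46 and SLC25A51 at 24 h, and in SLC25A44 at 48 h. At 24 h SLC25A37 had -0.21 on the probe set used and values up to 0.93 on others, and SLC25A51 had 0.20 against -0.30.

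**Figure D4:**
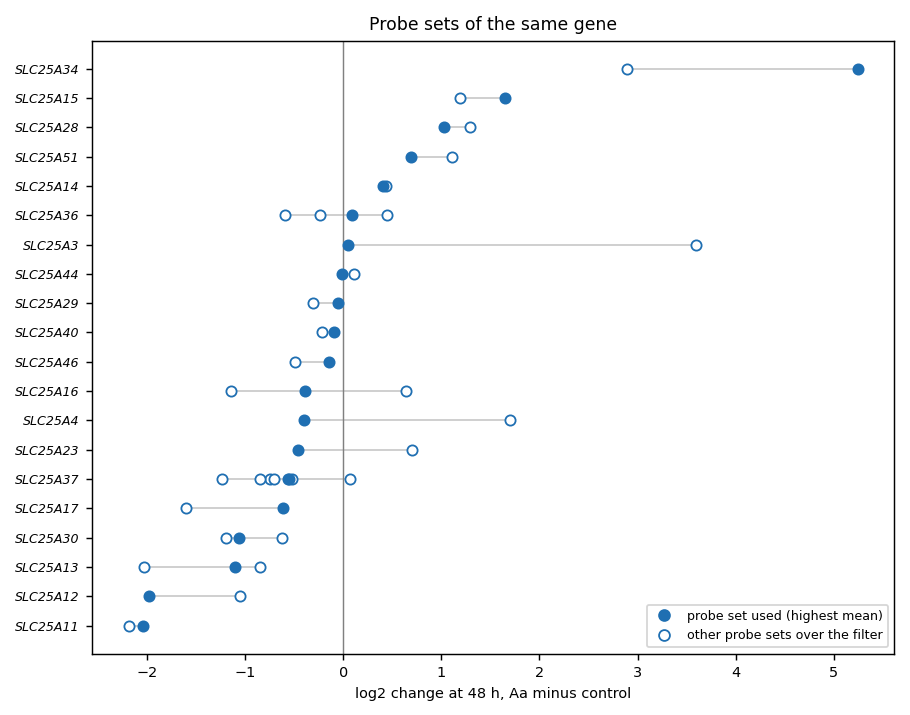
Log2 change at 48 h, Aa minus control, of every probe set over the filter for the tested SLC25 genes with more than 1; filled points are the probe sets used and open points the others. The 2 probe sets of SLC25A3 lie at 0.04 and 3.59, and those of SLC25A11 at -2.04 and -2.19.

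The genes differ in genomic length, from 2.92 kb for SLC25A11 to 245 kb for SLC25A26. Across 36 tested SLC25 genes with a span, the log2 change and the log10 span had a Pearson correlation of -0.10 at 24 h and -0.22 at 48 h (Spearman 0.06 and -0.16). The sign at 24 h rested on genes near background: the Pearson value was 0.03 without SLC25A34 and SLC25A35, and 0.0894 over the 30 SLC25 genes above log2 6 on average. Over 11174 genes it was -0.29 and -0.39. These correlations are across genes, which share the arrays and are not independent replicates. The 3 SLC25 genes of at least 100 kb, a limit chosen after the values were seen, were SLC25A12 (111 kb), SLC25A13 (202 kb) and SLC25A26, and all 3 fell at both times. Of all genes of that length 52.5% fell at 24 h and 71.2% at 48 h. Of the 33 shorter SLC25 genes 9 rose and 4 fell at 24 h, where 29.8% of all shorter genes rose and 16.5% fell. At 48 h 8 of the 33 rose and 8 fell, where 35.5% of all shorter genes rose and 25.9% fell.

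Other mitochondrial transport genes were counted in the same fits. In the fit without the replicate block, 26.3% of all genes were higher and 22.8% lower at 24 h, and 30.6% and 33.9% at 48 h. Of 4 tested family members with other symbols, 1 rose and 2 fell at 24 h and 1 rose and 1 fell at 48 h. The uncoupling protein gene UCP3 averaged 6.43 ± 0.12 in Aa-treated cells and 4.93 ± 0.11 in control cells at 24 h (SD, n = 3), a log2 change of 1.5 (limma adjusted p = 9.77e-06), and was higher by 0.41 at 48 h. UCP2 averaged 10.25 ± 0.56 in Aa-treated cells and 12.71 ± 0.18 in control cells at 48 h (SD, n = 3), with log2 changes of -1.29 at 24 h and -2.46 at 48 h (limma adjusted p = 0.00482 and 3.92e-05). MTCH2, an outer membrane relative of the carriers, fell by 0.32 at 24 h.

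Of 17 other inner membrane transporter genes, 5 rose and 5 fell at 24 h and 4 rose and 8 fell at 48 h. Thus 58.8% passed at 24 h and 70.6% at 48 h, against 49.1% and 64.5% of all genes. The sideroflexin genes SFXN2 and SFXN4 had changes of -1.99 and -1.76 at 24 h and -2.0 and -1.86 at 48 h, while the ABC transporter gene ABCB6 was higher by 1.40 and 2.10 (limma adjusted p = 7.05e-06 and 2.11e-07). Of 3 outer membrane channel genes, 0 passed at 24 h, and 1 had an unadjusted p under 0.05, as had 6152 of the 11184 genes tested. VDAC2 was higher by 0.34 at 48 h, and at 24 h with the replicate block (limma adjusted p = 0.0427). Of 18 genes of the import machinery, which carries these proteins into the organelle, 2 rose and 7 fell at 24 h and 4 rose and 5 fell at 48 h. This was 50% at each time, against 49.1% of all genes at 24 h and 64.5% at 48 h. TIMM10B and TIMM8B, small chaperones between the membranes, fell by 1.66 and 1.02 at 24 h. At 48 h TIMM8B had a change of -0.82 (limma adjusted p = 0.00012). TIMM10B had -0.57 at 48 h, which passed with the replicate block alone (limma adjusted p = 0.031, against 0.0621 without it). TIMM9, another of these chaperones, had -0.77 at 24 h (limma adjusted p = 0.00122) and fell by 1.77 at 48 h. TIMM44, of the import motor, was higher by 1.10 and 1.45, and TIMM17A, of the inner membrane translocase, by 0.59 and 0.89, at 24 h and 48 h.

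Of 25 genes for enzymes that use or supply carrier substrates, 5 rose and 4 fell at 24 h and 8 rose and 8 fell at 48 h. The shares that passed were 36% at 24 h and 64% at 48 h, against 49.1% and 64.5% of all genes. NFS1, the cysteine desulfurase of iron-sulfur cluster assembly, was higher by 1.09 and 1.13, and ALAS1, the first enzyme of haem synthesis, by 0.93 and 0.98. The urea cycle enzyme gene ASS1 had changes of -0.93 and -1.51, and CPT1A, of fatty acid import, fell by 1.03 at 48 h. At 24 h CPT1A had -0.69, which passed with the replicate block alone (limma adjusted p = 0.000819, against 0.0648 without it). Of 10 regulators of mitochondrial biogenesis, 3 rose and 1 fell at 24 h and 5 rose and 2 fell at 48 h, which is 40% and 70%. The coactivator gene PPARGC1A had changes of -2.13 and -2.65 (limma adjusted p = 0.000745 and 9.48e-05). The mitochondrial DNA polymerase gene POLG was higher by 0.79 and 1.49 and the mitochondrial transcription factor gene TFAM by 0.72 and 1.24. Over the 6 lists 16 genes rose and 19 fell at 24 h, and with the replicate block 30 fell. The share of all genes that fell with the block is not given here. With the block the genes lower at 24 h numbered 11 of the import machinery in place of 7, 8 of the enzymes in place of 4, 7 of the inner membrane transporters in place of 5 and 2 of the biogenesis regulators in place of 1. At 48 h the block gave 8 lower genes of the import machinery in place of 5.

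**Figure D5:**
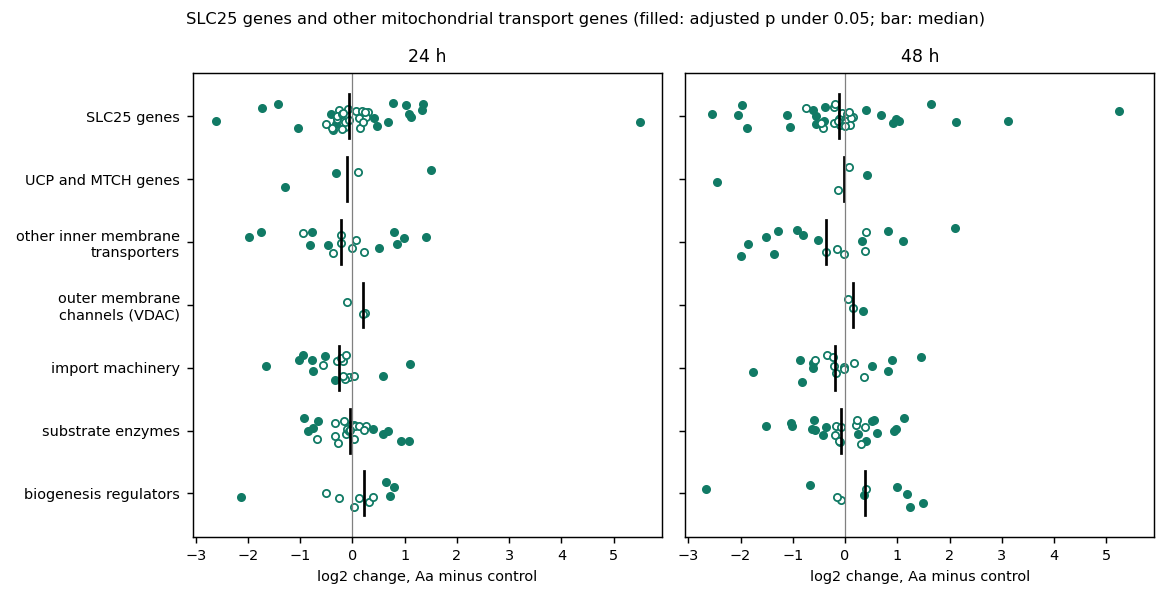
Log2 change, Aa minus control, at 24 h (left) and 48 h (right) of the tested SLC25 genes and of 6 lists of other mitochondrial transport genes; each point is a gene, filled where the limma adjusted p was under 0.05, and the bar is the median. The medians of the SLC25 genes lie at -0.06 and -0.12, and single genes of most lists lie on both sides of 0.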

How the data were processed

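Total RNA of 12 HK-2 samples was labelled and hybridised to Affymetrix arrays. The deposited values are log2 expression levels from GCRMA, run by the authors according to the submitters' processing notes. Its version, and whether other arrays entered the normalisation, are not stated in the sources used here. GCRMA equalises the distributions of the arrays, so a shift common to most transcripts is removed. Array medians lay between 2.91 and 3.02. Of 54675 probe sets, 41091 named 1 gene in the platform annotation, 1801 several and 11721 none, beside 62 controls.

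For the 11184 genes over log2 4 on at least 3 arrays, limma 3.58.1 (R 4.3.3) fitted a model of 4 group means (8 residual and 2.79 prior degrees of freedom), with Benjamini-Hochberg adjustment over all of them. The script was tested on simulated data. The median standard error of an SLC25 gene's change was 0.16 within a time, a precision set by the number of arrays. The labels call the replicates biological without saying whether they were separate cultures, so p-values measure only the spread between these samples. A fold against arrays under log2 4 takes those arrays at log2 4 and is given as at least that size.

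Deviations from the group means correlated at 0.279 to 0.577 for the 18 sample pairs with the same replicate number and at -0.371 to -0.0286 for the 36 others, so the numbers pair the samples, though what they share is not stated in the labels. Replicate 2 had the highest mean 3′ minus 5′ difference of each group, 0.547 and 0.680 with Aa and 0.355 and 0.418 with vehicle at 24 h and 48 h. Its part in the pairing was not tested. Unless the block is named, counts, standard errors and p-values come from the fit that does not use the pairing. The fit with the replicate number as a block is given where it changes a call given here for a named gene or moves a count by over 1.5 times. Each SLC25 gene with an adjusted p under 0.05 and a change of 1 log2 unit or more has every array given. SLC25A1, SLC25A3, SLC25A4, SLC25A5, SLC25A12, SLC25A13, SLC25A20 and SLC25A28 were named whatever their values, and in each other list up to 3 genes with the largest called change at each time. Genes outside this rule, such as GOT1, GOT2, MDH1 and MDH2 and the single arrays of SLC25A16 and SLC25A33, were chosen after their values were seen. The members and lists were chosen with earlier results of these data known. Promoter sequences and gene spans are from RefSeq (GRCh38.p14). The alternatives were other filters, probe set rules, scalings, priors, samples in the fit and single arrays left out.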

Additional observations from a re-analysis of the deposited data

Results flagged for a closer look

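The log2 change at 48 h minus that at 24 h passed the test of the difference (limma adjusted p under 0.05) for 7 SLC25 genes. It was 2.03 for SLC25A25, -1.57 for SLC25A12, -1.12 for SLC25A26, -0.94 for SLC25A36, -0.92 for SLC25A30, -0.85 for SLC25A16 and -0.39 for SLC25A5. The control arrays of 48 h differed from those of 24 h by 0.79 for SLC25A16 (limma adjusted p = 0.0326), 0.77 for SLC25A30 (0.0747), 0.44 for SLC25A36 (0.265), 0.35 for SLC25A26 (0.269), 0.15 for SLC25A12 (0.591), 0.05 for SLC25A5 (0.793) and -0.14 for SLC25A25 (0.69). With the replicate block those of SLC25A30 and SLC25A36 also passed (limma adjusted p = 0.0159 and 0.0182). The part of these values in the differences was not tested.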

How the results depend on the processing

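Of 808 values recomputed for the 37 called SLC25 results (a gene at a time), 748 kept direction and call, 57 kept the direction alone and 3 reversed; 23 results kept their call in every fit run. The cause of the changes was not tested. With hybridisation-control scaling 30.2% of all genes that passed were higher at 24 h, 23.5% at 48 h and 1.65% between the control times. Under it 11 SLC25 genes were lower at 24 h and 22 at 48 h, and 4 passed between the control times (0 higher, 4 lower). Under this scaling the other lists had 9 higher and 35 lower at 24 h and 10 and 39 at 48 h. It turned the 48 h value of SLC25A14 to -0.033, SLC25A24 to -0.16 at 24 h and -0.30 at 48 h, SLC25A3 to -0.22 and -0.40, and at 24 h SLC25A38 to -0.023, SLC25A40 to -0.11, SLC25A43 to -0.15, SLC25A44 to -0.037 and SLC25A51 to -0.085. At 48 h it turned SLC25A32 to -0.32, SLC25A36 to -0.35 and SLC25A39 to -0.37. With the mean of all probe sets SLC25A4 was 0.44 at 24 h and 0.65 at 48 h, SLC25A23 0.051 and 0.12, SLC25A37 0.012, SLC25A46 0.077 and SLC25A51 -0.049 at 24 h, and SLC25A36 -0.058 and SLC25A44 0.0505 at 48 h. That setting also gave new calls. SLC25A3 passed as higher at 24 h and 48 h (1.69 and 1.82), SLC25A17 and SLC25A30 as lower at 24 h (-0.83 and -0.43), and SLC25A46 as lower at 48 h (-0.32). Quantile normalisation turned SLC25A29 to 0.0041 and SLC25A44 to 0.063 at 48 h.

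The replicate block gave 2 positive differences between the times in place of 1, 7 genes passing between the control times (4 higher, 3 lower) and 30 lower genes in the lists at 24 h, and changed no called SLC25 result within a time; the mean of all probe sets and no filter also gave 2. With 1 array left out, between 4 and 8 SLC25 genes were lower at 24 h (4 without Aa replicate 1 of 24 h). The difference between times passed for 4 to 8 (1 to 2 positive, 3 to 6 negative) and that between the control times for 0 to 3 (0 to 2 higher, 0 to 1 lower). Leaving out 1 array moved values that had not passed across 0. At 24 h the ranges were -0.31 to 0.12 for SLC25A20, -0.29 to 0.23 for SLC25A39 and -0.15 to 0.067 for SLC25A42. At 48 h they were -0.31 to 0.17 for SLC25A1, -0.25 to 0.15 for SLC25A29, -0.036 to 0.20 for SLC25A36, -0.19 to 0.30 for SLC25A39 and -0.10 to 0.12 for SLC25A44. Over SLC25 genes above log2 6 on average the correlation of span and change was 0.0894 at 24 h and -0.0882 at 48 h. The fitted log2 changes of SLC25A20, SLC25A34, SLC25A35, SLC25A45 and SLC25A25-AS1, which lay near background on some arrays, are not sizes to rely on.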
